A study of Mus musculus with 2 samples.

Results

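The genes described here encode splicing regulators outside the SR protein family: the heterogeneous nuclear ribonucleoproteins (hnRNPs), the polypyrimidine tract binding (PTB) proteins, the RBFOX, CELF, ELAVL, NOVA, MBNL and KHDRBS families, the SRRM and TRA2 proteins, and the CLK and SRPK kinases. They were chosen by gene symbol, with earlier results of these data known, from the deposited table of 23652 listed genes. Leaving out 1 pseudogene, this gave 61 listings of 57 different genes. Expression was measured by RNA sequencing of pancreatic islets from mice aged 7 months. The control library came from mice homozygous for a floxed Srsf2 gene (SRSF2 flox/flox). The other library came from mice with the same floxed alleles and an Ins2-Cre transgene (SRSF2 flox/flox Ins2-Cre, also called SRSF2-PKO by the submitters), in which an insulin promoter drives the recombinase in beta cells, and it is called the knockout library below. The control carries no Cre, so carrying Cre and losing Srsf2 cannot be told apart, and neither the number nor the sex of the mice is given in the labels. Each genotype had 1 library, so differences have no replicate check and none was tested. The values describe these libraries, and in whole islets fewer cells of a type and less RNA per cell cannot be told apart.

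Splicing removes introns from a transcript and joins its exons, and regulators decide which exons are kept. SR proteins such as Srsf2 bind exons and mostly promote their inclusion, while many hnRNPs and PTB proteins block exons. Beta cells share with neurons a set of tissue-restricted regulators of the RBFOX, CELF, ELAVL, NOVA and SRRM families. CLK and SRPK kinases phosphorylate SR proteins and so set where they sit and how they act. Many of these regulators also control their own transcripts, by splicing in exons that send the transcript to nonsense-mediated decay.

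Srsf2 itself, with 2296 control reads and 1209 knockout reads, stood at 37.2 and 22.6 FPKM (reads scaled to gene length and library total). Its ratio of knockout over control was 0.607, with a 95% counting interval of 0.566 to 0.651. The libraries held 17412828 and 15098659 reads on genes. Differences are given as log2(FPKM + 0.5) in the knockout minus the control, over the 10666 genes measured at a mean of at least 1 FPKM, and this scale understates the differences of low genes. Their median was -0.36, a ratio of 0.778, and a relative difference is a gene's difference minus that median. Srsf2 had a relative difference of -0.34. Other SR protein genes lay both below and above it, such as Srsf4 at -0.54 and Srsf9 at 0.36. The 16 acinar markers held 1.53% of control reads and 13.5% of knockout reads, and relative to all genes 14 of the 15 measured were higher by 2-fold or more. The 10 beta cell markers held 23.4% and 21.4% of reads, most of them from Ins1, Ins2 and Iapp. Relative to all genes 7 of the 10 were below 0 and 3 above, with 1, Slc2a2 (ratio 0.357), lower by 2-fold or more. As deposited, 3 were lower by 2-fold or more. Of all measured genes, 1.36% were lower and 3.22% higher by as much relative to all genes, and 6.32% were lower as deposited. The 5 lymphocyte markers took 0.00277% and 0.00786%. The 7 alpha cell markers took 2.23% and 3.02%, the 3 delta cell markers 0.405% and 0.699%, and both PP cell markers together 0.462% and 1.11%. Duct, endothelial, stromal, macrophage and neural or Schwann markers each held under 0.05% of reads in both libraries. No marker of any of these lists stood at 0 reads in either library. The part of these cell markers in the differences below was not tested.

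Of the 61 listings, 42 reached a mean of 1 FPKM and 19 did not. All 42 had more than 1 FPKM in both libraries, so none was measured through 1 library alone. Their levels ran from 1.96 to 153 FPKM in the control and from 1.41 to 102 FPKM in the knockout library. The hnRNP genes were the most abundant, with a summed level of 993 FPKM in the control and 691 FPKM in the knockout library. Hnrnpk, whose protein binds C-rich RNA, had the highest level of the measured members, 153 and 102 FPKM. Hnrnpab and Hnrnpa2b1 followed in the control at 110 and 101 FPKM, and in the knockout library stood at 84.1 and 85.5 FPKM, in the other order. Outside the hnRNPs the highest members in the control library were Ptbp1 at 50.8 and 38.9 FPKM, Tra2b at 42.9 and 22.1 FPKM, Ptbp3 at 41.1 and 30.5 FPKM and Clk1 at 41.0 and 28.0 FPKM. In the knockout library Khdrbs3, at 28.4 FPKM, stood above Clk1 and Tra2b.

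**Figure D1:**
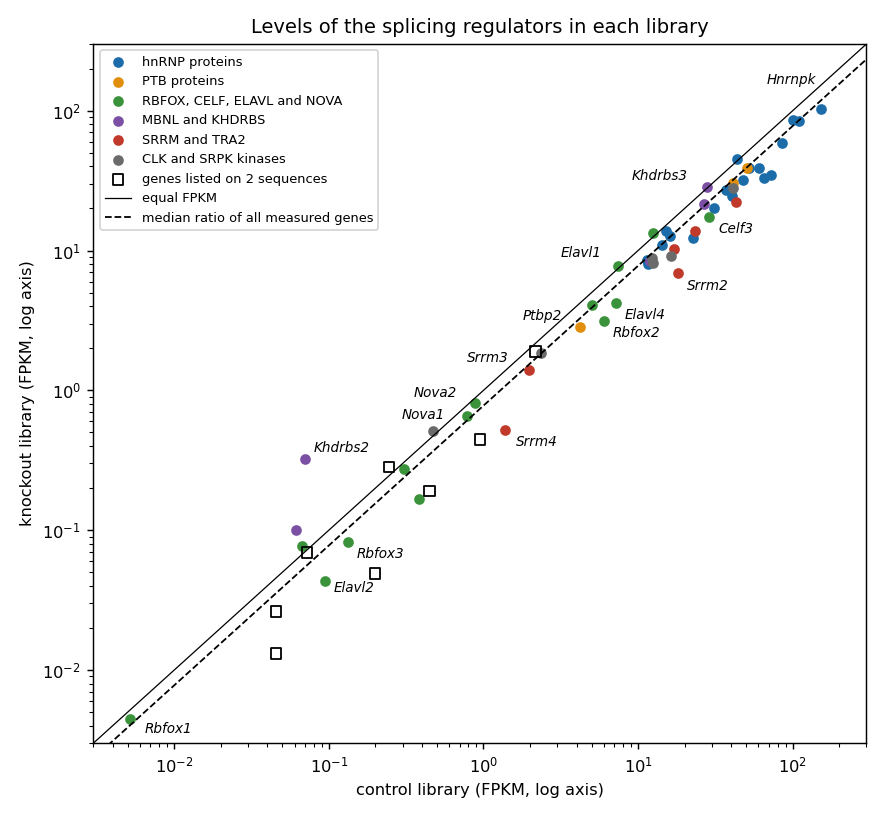
FPKM of all 61 listings in the control library (x axis) and the knockout library (y axis), both on log axes, with colours for the families and open squares for the 8 listings of genes placed on 2 sequences. Most points lie below the line of equal FPKM and along the dashed line at the median ratio of all measured genes, 0.778, while Srrm2 and Srrm4 lie below it and Khdrbs3 and Elavl1 near equality.

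Relative to all genes, 0 of the 42 measured members were lower in the knockout library by 2-fold or more and 0 were higher by as much, against 1.36% and 3.22% of all measured genes. As deposited, without centring, 2 members were past 2-fold lower and 0 past 2-fold higher, against 6.32% and 1.57% of all genes. The median relative difference of the members was -0.12, where that of all measured genes is 0 by construction, and 30 members lay below 0 and 12 above. The ratio was under 1 for 38 of the 42, against 78.9% of all genes. Its counting interval lay wholly below 1 for 37, against 64.4% of all genes, and wholly above 1 for 0, against 11.2%. The interval lay wholly below the median ratio of 0.778 for 22 members and wholly above it for 6, against 36.3% and 30.2% of all genes. All these interval counts depend on depth, since the members had 95 to 9220 reads in the control. The members' relative differences ran from -0.98 to 0.46.

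**Figure D2:**
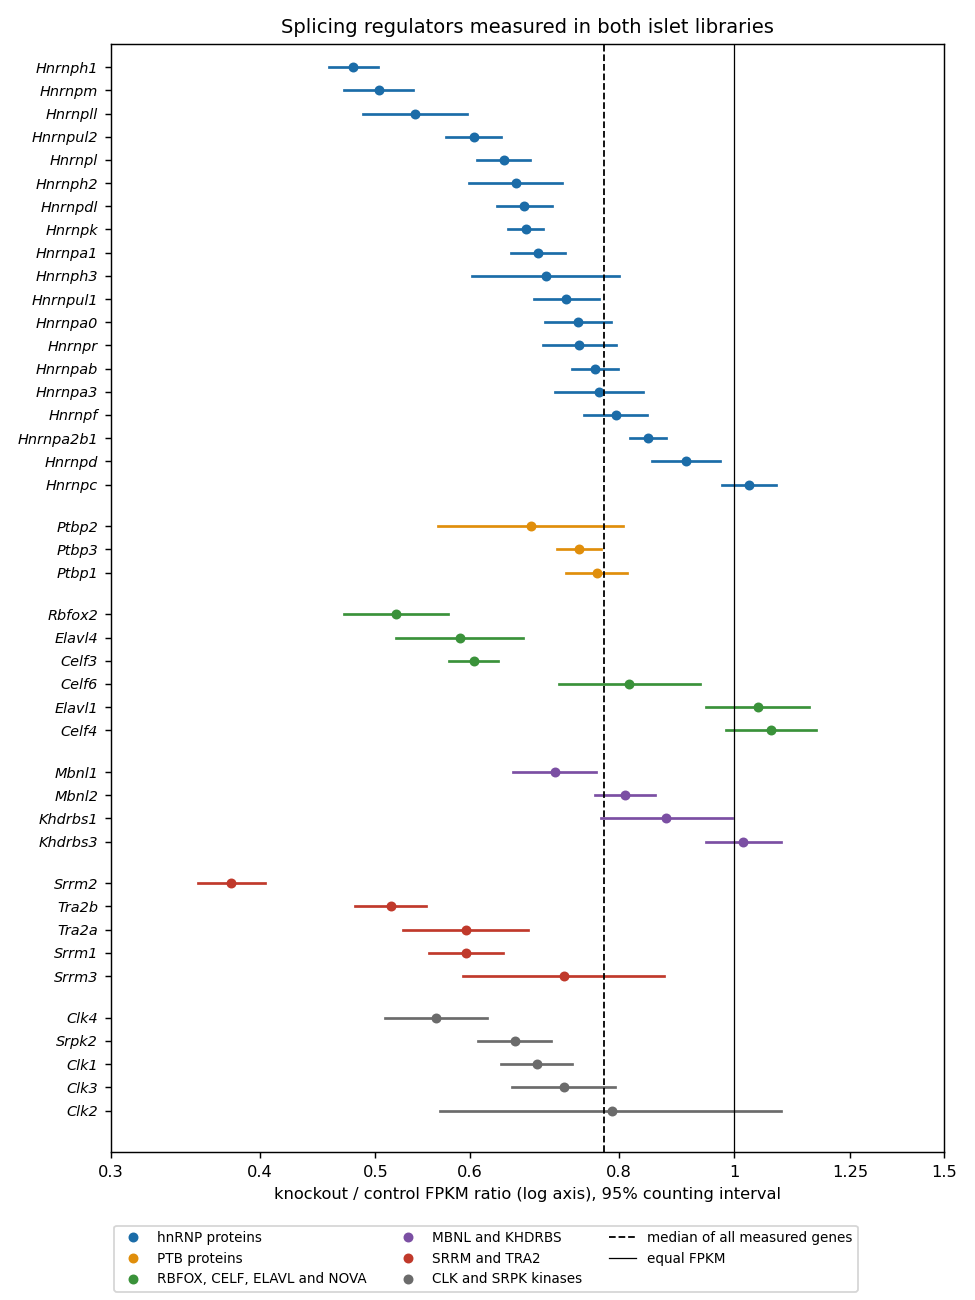
Knockout over control FPKM ratio (log axis) of each of the 42 measured members, grouped by family, with 95% counting intervals that leave out all variation between mice. The dashed line is the median ratio of all measured genes, 0.778, and the solid line equality. Srrm2 has the lowest ratio, 0.379, and Celf4 the highest, 1.07.

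SRRM1 and SRRM2 are nuclear matrix proteins rich in serine and arginine that bridge splicing factors bound to exons, and TRA2 proteins are SR-like activators of exons with GA-rich sequence. All 5 measured members of this group were below the median of all genes, with a median relative difference of -0.36, the lowest of the 6 groups. Of these, Srrm3 lay at the median, at -0.002, and above it at 0.04 with a pseudocount of 1 FPKM. Srrm2, on chromosome 17 from 23790527 to 23824741 on the plus strand (GRCm38), had 3780 control and 1241 knockout reads, or 18.1 and 6.85 FPKM. Its ratio of 0.379 (counting interval 0.355 to 0.404) was the lowest of the measured members. The relative difference was -0.98, just short of the 2-fold rule, and 1.52% of measured genes had a lower one. In the authors' deposited table its log2 fold change is -1.02 with a p-value of 0.0392 and an adjusted p-value of 1, the only p-value under 0.05 among the 61 listings. The gene overlaps Elob on the opposite strand, which had 794 and 829 reads. Whether counting used strand is not given in the sources used here, so reads of the overlap cannot be assigned.

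Tra2b had 2748 control and 1227 knockout reads, a ratio of 0.515 (0.481 to 0.551) and a relative difference of -0.58. Its paralog Tra2a, at 17.1 and 10.2 FPKM, had a ratio of 0.595 (0.527 to 0.671). Srrm1 had 23.2 and 13.8 FPKM, a ratio of 0.596 (0.555 to 0.640). The neural members of the SRRM family were far lower in level. Srrm3, an activator of microexons (very short exons) in neurons and islets, had 279 and 174 reads, or 1.96 and 1.41 FPKM. Its relative difference was -0.00, and its interval of 0.592 to 0.872 spanned the median ratio. Srrm4, the neural microexon activator also called nSR100, had 218 and 72 reads, or 1.37 and 0.522 FPKM. It fell short of the mean of 1 FPKM, and its ratio of 0.381 (0.288 to 0.499) was close to that of Srrm2 (0.379).

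Human SRSF2 binds RNA at the 4-base motifs CCNG and GGNG, where N is any base, so the coding sequence of each gene was searched for both on the sense strand, counting overlapping matches (GENCODE transcripts, GRCm38). All 57 genes had a coding transcript there. The 42 measured members had a median of 4.49 matches per 100 coding bases and a range of 2.14 to 11.0, and the 10482 measured genes with a coding transcript a median of 4.36. Of the 42 members 22 lay above that gene median. Srrm2 had 336 matches in 8109 coding bases, or 4.14 per 100, and Hnrnph1 had 58 in 1347, or 4.31 per 100, both slightly under the gene median. Hnrnpa0, a gene with 1 exon, had the most at 11.0 per 100, and Clk1 the fewest at 2.14. Across the 42 members Spearman's rho of match density and relative difference was 0.11, and that of match density and GC content 0.65. To show what such stretches look like, the 60-base coding window with the most matches is printed for the measured members with the lowest (Srrm2, Hnrnph1) and the highest (Elavl1, Hnrnpc) relative differences, leaving out Celf4, with the matched bases in capitals.
Srrm2, exon 11, chr17:23819912-23819971, plus strand: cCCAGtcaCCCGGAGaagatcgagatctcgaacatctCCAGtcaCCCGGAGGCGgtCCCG
Hnrnph1, exon 6, chr11:50381464-50381523, plus strand: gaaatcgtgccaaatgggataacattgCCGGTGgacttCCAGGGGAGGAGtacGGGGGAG
Elavl1, exon 5, chr8:4295350-4295409, minus strand: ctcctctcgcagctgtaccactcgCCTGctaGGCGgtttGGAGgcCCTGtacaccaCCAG
Hnrnpc, exon 8, chr14:52075255-52075314, minus strand: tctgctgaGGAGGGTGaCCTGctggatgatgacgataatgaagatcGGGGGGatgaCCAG
These windows hold 10, 9, 5 and 7 matches in that order. Of 246820 non-overlapping windows of 60 coding bases in the searched genes, 87.4% hold at least 1 match, and 0.474%, 0.912%, 13.9% and 3.59% hold at least as many as each of these, which were picked for their matches and from coding sequences of unequal length. A match is a run of letters in the reference, not a measured binding site.

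Among the 19 measured hnRNP genes, 14 lay below the median of all genes and 5 above, with a median relative difference of -0.14. Hnrnph1, which encodes a protein that binds runs of G, was the lowest. It lies on chromosome 11 from 50375257 to 50386528 and had 5906 control and 2453 knockout reads. Its levels were 72.7 and 34.8 FPKM. The ratio was 0.479 (0.457 to 0.502) and the relative difference -0.69. Its close relatives differed less: Hnrnph2 had a ratio of 0.655 (0.599 to 0.717), Hnrnph3 of 0.695 (0.603 to 0.7999) and Hnrnpf of 0.795 (0.748 to 0.845). Reads shared between near-identical copies could have been split among Hnrnph1, Hnrnph2 and Hnrnpf, since the treatment of such reads is not given in the sources used here. Hnrnph3 also overlaps Rufy2 on the other strand, which had 437 reads beside its 531 in the control and 317 beside 320 in the knockout library.

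Hnrnpm, whose protein binds GU-rich RNA, had 65.2 and 32.8 FPKM, a ratio of 0.503 (0.471 to 0.538) and a relative difference of -0.62. With Srrm2 and Hnrnph1 it made up the 3 members at least 1.5-fold lower relative to all genes, against 8.1% of all genes, and 0 members were at least 1.5-fold higher, against 11.3%. Hnrnpll, known from T cells as a regulator of Cd45 splicing, had 22.6 and 12.2 FPKM, a ratio of 0.540 (0.488 to 0.596). Its paralog Hnrnpl, which binds CA repeats, had 60.5 and 38.8 FPKM, a ratio of 0.641 (0.609 to 0.675). Hnrnpul2 had a ratio of 0.604, Hnrnpk 0.669, Hnrnpdl 0.667 and Hnrnpa1 0.684, each with an interval wholly below the median ratio. Hnrnpdl overlaps Enoph1 on the other strand, which had 431 and 385 reads.

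At the other end stood Hnrnpc, whose protein binds U tracts and packages new transcripts. It had 3088 and 2753 reads, or 43.7 and 45.0 FPKM, a ratio of 1.03 (0.976 to 1.08) and a relative difference of 0.40. Hnrnpd, encoding the AU-rich element binding protein AUF1, had 15.2 and 13.9 FPKM, a ratio of 0.911 (0.853 to 0.972) and a relative difference of 0.23. Hnrnpa2b1 had 7522 and 5520 reads, a ratio of 0.846 (0.817 to 0.876) and a relative difference of 0.12. The relative differences of these 3 genes were above 0, but as deposited Hnrnpd and Hnrnpa2b1 were lower in the knockout library, so their sign depends on the scaling. Hnrnpab, Hnrnpa0, Hnrnpa3, Hnrnpr and Hnrnpf were within 0.07 of the median of all genes, with intervals that spanned the median ratio.

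The PTB proteins bind pyrimidine-rich RNA and block exons. Ptbp1 is the widely expressed form and is known in beta cells for binding transcripts of secretory granule proteins, while Ptbp2 is the neuronal form. Ptbp1 had 2749 control and 1827 knockout reads, a ratio of 0.766 (0.722 to 0.813). Ptbp3 had 5382 and 3457 reads, a ratio of 0.741 (0.710 to 0.773), and Ptbp2 had 340 and 199 reads, a ratio of 0.675 (0.564 to 0.806). Their relative differences were -0.02, -0.06 and -0.13, the tightest of the groups. Ptbp2 stood at 0.0829 of the level of Ptbp1 in the control and at 0.0730 in the knockout library.

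In the RBFOX, CELF, ELAVL and NOVA families, 6 of 16 listings were measured, 3 below the median of all genes and 3 above. Rbfox2, the RBFOX gene that prevailed in both libraries and whose protein binds the motif GCATG, had 1249 and 564 reads, or 6.002 and 3.13 FPKM. Its ratio was 0.521 (0.471 to 0.576) and its relative difference -0.48. Its relatives were near absent, with 8 and 6 reads for Rbfox1 and 59 and 32 for Rbfox3. Leaving aside Celf1, whose level is uncertain as described below, Celf3 was the highest of the CELF genes at 28.8 and 17.4 FPKM. It had 5056 and 2650 reads and a ratio of 0.604 (0.576 to 0.634). Celf4, a brain-enriched relative, had 12.4 and 13.3 FPKM, a ratio of 1.07 (0.984 to 1.17) and the highest relative difference of the measured members, 0.46. Celf6 was lower in level than both, at 5.03 and 4.11 FPKM, and its ratio of 0.816 (0.712 to 0.935) lay between theirs. Celf5 had 45 and 17 reads and Celf2 274 and 213, both under a mean of 1 FPKM.

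ELAVL proteins (Hu proteins) bind U-rich and AU-rich RNA and act on both splicing and stability. Elavl1, the ubiquitous member also called HuR, had 839 and 761 reads, or 7.46 and 7.80 FPKM, a ratio of 1.05 (0.947 to 1.16). Elavl4, the neuronal member HuD, which is known in beta cells for binding insulin 2 mRNA, had 782 and 399 reads, or 7.15 and 4.21 FPKM, a ratio of 0.588 (0.520 to 0.665). The levels of both were thus nearly equal in the control library and apart in the knockout library. Elavl2 had 40 and 16 reads and Elavl3 had 6 and 6. Nova1 and Nova2, which bind YCAY motifs (where Y is a pyrimidine) and of which Nova1 is known in beta cells, had 240 and 175 reads and 128 and 103 reads. Both were under a mean of 1 FPKM, and their ratios of 0.841 (0.688 to 1.03) and 0.928 (0.709 to 1.21) had intervals spanning both the median ratio and 1.

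MBNL proteins favour adult splicing patterns and are sequestered by repeat RNA in myotonic dystrophy, and KHDRBS proteins (Sam68 and its relatives) bind A and U-rich RNA. Mbnl2 was the higher MBNL gene at 26.6 and 21.6 FPKM, a ratio of 0.810 (0.764 to 0.858), and Mbnl1 had 11.9 and 8.39 FPKM, a ratio of 0.707 (0.653 to 0.766). Mbnl3 had 10 and 14 reads. Khdrbs3, encoding the neural Sam68 relative SLM2, had 1616 and 1426 reads, or 27.9 and 28.4 FPKM, a ratio of 1.02 (0.947 to 1.09) and a relative difference of 0.39. Khdrbs2, encoding SLM1, had 4 control and 16 knockout reads, a ratio of 4.61 with a counting interval of 1.49 to 19.0. The 4 measured genes of this group had a median relative difference of 0.14, but of -0.22 as deposited.

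All 5 measured kinase genes had ratios below 1, as did 78.9% of all measured genes. Clk1, which encodes a nuclear kinase of SR proteins, had 41.0 and 28.0 FPKM, a ratio of 0.683 (0.637 to 0.731). Its paralog Clk4 had 1230 and 600 reads, a ratio of 0.563 (0.509 to 0.621) and the lowest relative difference of the kinases, -0.43. Clk3 had a ratio of 0.719 (0.651 to 0.795), and Clk2, on 95 and 65 reads, one of 0.789 (0.567 to 1.09) with a relative difference of 0.09. Srpk2, a mainly cytoplasmic kinase of SR proteins, had 12.5 and 8.20 FPKM, a ratio of 0.654 (0.610 to 0.702). It overlaps Kmt2e on the other strand, which had 1100 and 583 reads. The muscle kinase gene Srpk3 had 31 and 29 reads.

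For 4 genes, Celf1, Hnrnpu, Khdrbs1 and Srpk1, the table holds a listing on a chromosome and another on an extra scaffold of the assembly. Hnrnpu, which encodes an abundant nuclear matrix protein, had 8 control and 2 knockout reads on chromosome 1 and 125 and 51 on its scaffold. Celf1, a ubiquitous regulator, had 28 and 6 reads and 62 and 23 on its scaffold. Srpk1 had 24 and 24 reads and Khdrbs1 572 and 435, with under 10 on their scaffolds in either library. The treatment of reads that match both places is not given in the sources used here, so the levels of these 4 genes and any ratio built on them are uncertain. Without these listings 41 measured members remained, with a median relative difference of -0.13.

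Ratios between relatives within a library do not depend on its scaling. They can still differ with the mix of cell types in the islets, whose part was not tested. Among 17 such pairs, the ratio was lower in the knockout library with an interval wholly below 1 in 4. It was higher with an interval wholly above 1 in 4, and the interval spanned 1 in 9. The share over other pairs of genes was not computed, and such counts depend on depth. Of all measured single genes, 36.3% had intervals wholly below the median ratio and 30.2% wholly above it, which is a different measure from that of the pairs. Some pairs share a gene, and Celf3 over Celf1 and Srpk2 over Srpk1 rest on levels called uncertain above. Elavl4 over Elavl1 stood at 0.958 in the control and 0.539 in the knockout library, which is 0.563 of the control value (counting interval 0.480 to 0.659). Hnrnph1 over Hnrnpf went from 4.52 to 2.72, or 0.602 of it (0.558 to 0.651), and Hnrnpdl over Hnrnpd from 3.15 to 2.30, or 0.732 (0.673 to 0.796). Reads of the overlap of Hnrnpdl with Enoph1 cannot be assigned. Elavl2 over Elavl1 was 0.441 of the control value (0.229 to 0.813) on 40 and 16 reads of Elavl2. In the other direction, Srrm3 over Srrm2 went from 0.108 to 0.205, or 1.90 times the control value (1.55 to 2.33). Hnrnpa2b1 over Hnrnpa1 was 1.24 times the control value (1.16 to 1.32), Mbnl2 over Mbnl1 1.15 times (1.04 to 1.26) and Tra2a over Tra2b 1.16 times (1.01 to 1.33). For Ptbp3 over Ptbp1 the value was 0.966 (0.898 to 1.04) and for Srrm4 over Srrm2 1.01 (0.754 to 1.33).

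**Figure D3:**
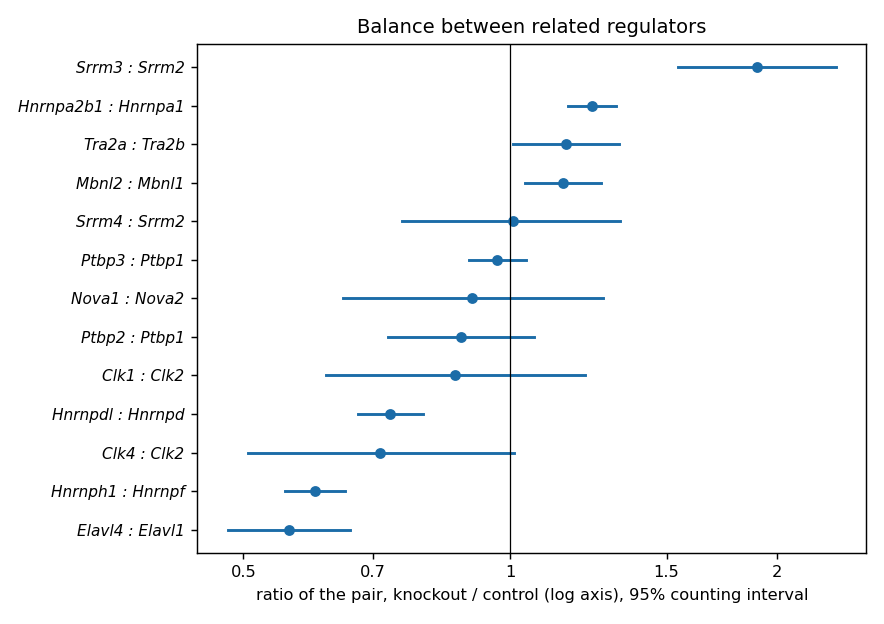
Ratio of FPKM between related regulators, knockout over control (log axis), with 95% counting intervals, for the 13 pairs in which each gene had at least 50 reads in each library. Elavl4 to Elavl1 has the lowest value, 0.563, and Srrm3 to Srrm2 the highest, 1.90, while the PTB pairs span 1.

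Differences over all genes followed gene length, with Spearman's rho of -0.55 between listed length and log2 difference over the 10666 measured genes. Over the 42 members rho was 0.09. Set against the median of the 500 measured genes nearest in length, 23 of the 42 members were lower and the median difference was -0.04. On that scale Hnrnpm (-0.72), Srrm2 (-0.70), Tra2b (-0.54), Hnrnph1 (-0.52) and Hnrnpll (-0.51) were the lowest, and Elavl1 (0.64), Celf4 (0.63), Hnrnpc (0.50) and Hnrnpd (0.50) the highest. The SRRM and TRA2 genes had a median of -0.41 with 4 of 5 lower, while Celf3 stood at -0.04 and Rbfox2 at -0.21.

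**Figure D4:**
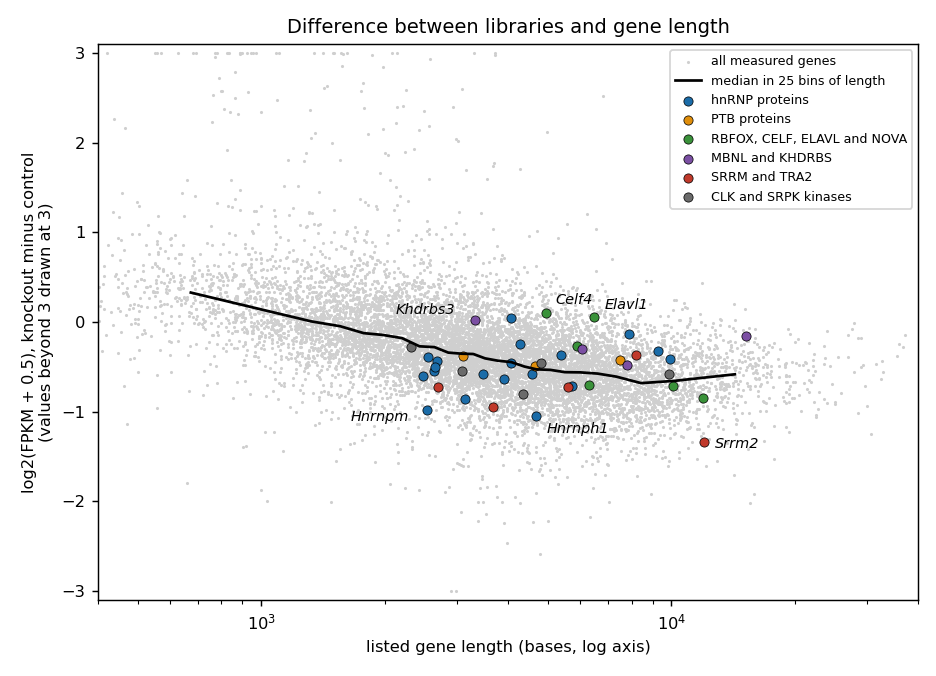
Difference in log2(FPKM + 0.5), knockout minus control, against listed gene length (log axis) for all measured genes (grey), their median in 25 bins of length (line) and the 42 measured members (colours by family). Srrm2, Hnrnph1 and Hnrnpm lie below the line and Celf4, Elavl1 and Khdrbs3 above it.

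Other splicing genes were taken from lists by name. Of all measured genes, 1.36% were lower and 3.22% higher by 2-fold or more relative to all genes. As deposited these shares were 6.32% and 1.57%. Of 10 measured SR protein genes 0 were past 2-fold in either direction relative to all genes, with a median relative difference of -0.23. Of 34 other RNA-binding regulators 0 were past 2-fold in either direction (2 were lower by 2-fold or more as deposited), with a median of -0.10. The lowest of these was Sfpq, encoding a paraspeckle and splicing protein, at 4970 and 2019 reads and -0.70, followed by Son, encoding a nuclear speckle protein that with SRRM2 forms the speckle core, at 4321 and 1794 reads and -0.67. The highest was Pcbp2, encoding a C-rich RNA binding protein, at 3269 and 3016 reads and 0.45. Of 8 measured core splicing factors 1 was lower by 2-fold or more, Snrnp70 of the U1 particle (-1.21), and 0 were higher (3 were lower by 2-fold or more as deposited), with a median of -0.37. Snrnp200 (-0.73) and Sf3b1 (-0.68) were next, while U2af1, which recognises the end of the intron, stood at 0.42.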

How the data were processed

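Read counts per gene and FPKM values of 1 control and 1 knockout library were deposited side by side, per the file headers. The counts are whole numbers and not normalised. The FPKM values were made by the authors from the counts, the listed length and each library's summed counts. The authors also deposited a comparison by DESeq, with size-factor scaled counts as a signal (size factors of 1.23 and 0.816), a log2 fold change, and raw and adjusted p-values. Bowtie2 2.4.2, DESeq and the builds mm10 and GRCm38 are named in the submitters' processing notes. The sources used here do not give the counting tool, strand setting or annotation release. With 1 library a group no model was fitted and no p-value was computed. Ratios are of FPKM, with 95% Clopper-Pearson intervals conditional on the summed reads, and intervals for pairs of genes are conditional on the margins (Fisher). Both cover counting error only: without molecular identifiers, reads can be copies of 1 molecule. Size rules of 2-fold and 1.5-fold take the place of a test. The steps were tested on simulated counts with planted changes and counting error only. Such counts hold no variation between mice, so the test cannot show how the steps do with it. The members and lists were chosen with earlier results of these data known. Genes named are those past 2-fold as deposited, the highest, lowest and most abundant of each family, the tissue-restricted members and the pairs, and a few others were picked with their values in view. The alternatives tried were pseudocounts of 0.1 and 1 FPKM, no minimum or a mean of at least 5 FPKM, other scalings, and the 500 genes nearest in length. Python 3.11.15, pandas 2.3.3, NumPy 2.4.6, SciPy 1.17.1 and Matplotlib 3.10.9 were used.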

Additional observations from a re-analysis of the deposited data

How the results depend on the processing

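The number of members at least 2-fold lower relative to all genes, 0, became 1 (Srrm2) with no filter on low values, 1 (Srrm2) at a mean of at least 5 FPKM, 1 (Srrm2) with totals taken without the 20 highest genes, 2 (Srrm2 and Hnrnph1) as deposited and 3 with the 1.5-fold rule (with Hnrnpm). It stayed at 0 with pseudocounts of 0.1 and 1 FPKM, the authors' normalised counts and the 500 genes nearest in length, and the number at least 2-fold higher was 0 under every alternative run. Srrm2 stood at -0.98 in the main setting, just short of the 2-fold rule, so a small shift is enough to carry it past. The share of all genes that were lower was 1.36% in the main setting, 6.32% as deposited and 8.1% with the 1.5-fold rule. Under the other alternatives this share was not computed, so the member counts there have no such comparison. The median relative difference of -0.12 became -0.49 as deposited and -0.26 without the 20 highest genes, both shifts set by the scaling itself, and ran from -0.19 to -0.04 under the others. As deposited 8 of the 42 members had another sign than relative to all genes, and 9 did so against genes of like length. No paired analysis was possible because each group had 1 library, which also leaves no replicate to leave out. Depth limits the members with few reads, such as Elavl3, Rbfox1 and Khdrbs2.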

Other observations

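The listing of a gene on both a chromosome and an extra scaffold was also found for genes that are no splicing regulators. Counted by symbol, 1116 genes were listed more than once, whether on a chromosome and a scaffold or elsewhere, which was not checked. Their summed reads in the control library had a median of 4, and the genes listed once had a median of 73. Among the SR protein genes, Srsf1 had 104 control reads, fewer than the 2296 of Srsf2. Whether Srsf1 is listed more than once is not shown here.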
